A study of Mus musculus with 7 samples.

Results

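The glucocorticoid receptor gene Nr3c1 and 8 genes known as targets of the receptor (Fkbp5, Tsc22d3, Sgk1, Ddit4, Zbtb16, Mt1, Mt2 and Klf15) were examined for occupancy by BMAL1, REV-ERBα and RNA polymerase II (RNAP2) in mouse gastrocnemius, a hindlimb muscle. The 9 genes were chosen by name out of 21938 protein-coding genes of the GENCODE M21 annotation (mm10, GRCm38). Every ChIP-seq peak that overlapped one of their gene bodies, or lay within 10 kb of one of their annotated transcription start sites (TSSs), was taken into account. All muscles came from adult male wild-type C57BL/6J mice. BMAL1 and RNAP2 were precipitated from muscle collected at Zeitgeber time (ZT) 4, and REV-ERBα, with 2 antibodies, from muscle collected at ZT8. Each of the 3 factors had 2 replicates, and each replicate had its own peak list, drawn up by MACS2 with input DNA as control and a lenient cutoff of 0.05 on unadjusted p-values. Because REV-ERBα was mapped at a different time from BMAL1 and RNAP2, factor and time cannot be told apart. Each factor was mapped in 1 condition, so no test between groups was made, and the values are descriptive.

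The glucocorticoid receptor is a nuclear receptor that waits in the cytoplasm in a complex with heat shock proteins and immunophilins. On binding corticosterone, the main glucocorticoid of mice, it moves to the nucleus and binds glucocorticoid response elements (GREs), inverted repeats separated by 3 bases. In skeletal muscle the receptor promotes protein breakdown and restrains growth signalling, and its ligand follows a strong daily rhythm. BMAL1 is the activating arm of the circadian clock and binds E-boxes (CACGTG), whereas REV-ERBα is a repressor of the same clock that binds the half-site AGGTCA. RNAP2 marks promoters and transcribed genes.

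The 13-base GRE core GNACANNNTGTNC (N is any base, both strands searched) was located in the mm10 sequence. The 6 windows that hold a core gave 30 different positions in all, since Mt1 and Mt2 share 3. The 2 cores in REV-ERBα peaks, the core in an intronic RNAP2 peak of Zbtb16, the core in a Klf15 exon and the promoters of Sgk1, Mt1, Mt2 and Klf15 are printed because the occupancy described below lies on them or beside them. Each is given 5′ to 3′ on the strand of its gene. Capitals mark the GRE core, and also the AGGTCA half-site at the Sgk1 3′ site, the E-boxes in the Sgk1 and Klf15 promoters, and the metal response elements (TGCACNC or TGCGCNC, either strand) in the Mt1 and Mt2 promoters. The promoters are the 250 bases before the RefSeq start site (GRCm38.p6), and that of Sgk1 belongs to an upstream start site.
Sgk1 3′ site, chr10:22000331-22000480, plus strand: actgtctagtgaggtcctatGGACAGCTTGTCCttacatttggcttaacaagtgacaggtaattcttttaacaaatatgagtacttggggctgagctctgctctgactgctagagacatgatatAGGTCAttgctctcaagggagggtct
Sgk1 upstream promoter, chr10:21993640-21993889, plus strand: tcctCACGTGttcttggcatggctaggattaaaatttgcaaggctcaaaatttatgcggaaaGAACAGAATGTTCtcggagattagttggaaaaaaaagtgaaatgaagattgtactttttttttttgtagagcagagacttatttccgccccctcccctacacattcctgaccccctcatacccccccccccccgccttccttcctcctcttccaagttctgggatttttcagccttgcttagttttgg
Fkbp5 upstream core, chr17:28518160-28518212, minus strand: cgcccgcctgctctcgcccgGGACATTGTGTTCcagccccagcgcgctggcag
Zbtb16 intron core, chr9:48824912-48824964, minus strand: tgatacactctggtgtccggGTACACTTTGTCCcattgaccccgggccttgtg
Klf15 exon core, chr6:90464658-90464670, plus strand: GGACACCATGTTC
Mt1 promoter, chr8:94178839-94179088, plus strand: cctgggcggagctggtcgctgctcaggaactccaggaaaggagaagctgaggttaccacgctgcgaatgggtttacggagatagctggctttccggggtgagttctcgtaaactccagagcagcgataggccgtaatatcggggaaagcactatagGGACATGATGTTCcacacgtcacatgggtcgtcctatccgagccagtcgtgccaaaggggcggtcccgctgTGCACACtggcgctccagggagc
Mt2 promoter, chr8:94172368-94172617, plus strand: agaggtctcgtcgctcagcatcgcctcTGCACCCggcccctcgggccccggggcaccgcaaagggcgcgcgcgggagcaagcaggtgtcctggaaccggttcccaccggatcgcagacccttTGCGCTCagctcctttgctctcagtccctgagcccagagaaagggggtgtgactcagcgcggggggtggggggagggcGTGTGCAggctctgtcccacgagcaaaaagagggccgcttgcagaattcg
Klf15 promoter, chr6:90462326-90462575, plus strand: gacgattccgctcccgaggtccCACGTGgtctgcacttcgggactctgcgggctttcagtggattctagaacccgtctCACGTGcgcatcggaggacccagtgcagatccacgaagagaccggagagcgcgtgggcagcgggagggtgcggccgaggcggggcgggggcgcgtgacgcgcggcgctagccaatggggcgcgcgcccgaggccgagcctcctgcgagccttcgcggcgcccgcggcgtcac

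RNAP2 occupied 8 of these genes at ZT4, REV-ERBα at ZT8 occupied 3, and BMAL1 at ZT4 occupied 1, a count near its share over all genes. A gene was counted for a factor when peaks of both replicates overlapped by at least 1 bp in its window, and such a merged stretch is called a region. RNAP2 had a region at 8 of 9 genes, all but Fkbp5, against 41.1% of all protein-coding genes. Mt1 and Mt2 were counted through 1 and the same region, at Mt1. In whole muscle, weak occupancy in many nuclei and strong occupancy in few cannot be told apart. REV-ERBα had a region at Fkbp5, Sgk1 and Ddit4, 3 of 9 genes, against 4.44% of all protein-coding genes and 8.5% of the 9027 genes that had an RNAP2 region. BMAL1 had a region at Sgk1 alone, 1 of 9 genes, against 6.81% of all protein-coding genes and 22.1% of those with windows of at least 100 kb, as that of Sgk1 is. A site shared by BMAL1 and REV-ERBα, with peaks in at least 3 of their 4 lists, occurred at Sgk1 alone, against 1.62% of all genes. With only the 10 kb around TSSs considered, the same counts of genes were found, against 38.2% of all genes for RNAP2, 3.69% for REV-ERBα, 4.23% for BMAL1 and 1.27% for shared sites. The counts of the clock factors depended on the threshold: when each list was limited to a −log10 p of 3 or more, BMAL1 regions and shared sites fell to 0 genes and REV-ERBα regions to 2, and at a −log10 q of 1.3 or more all 3 counts were 0.

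The windows of these genes were longer than usual, with a median of 77.99 kb and a range of 20 to 191.9 kb, against a median of 30.21 kb over all protein-coding genes. Longer windows hold more regions. Among the 2850 genes with windows of at least 100 kb, 7.47% had a REV-ERBα region, 22.1% a BMAL1 region and 56% an RNAP2 region. Among the 8572 genes with windows under 25 kb, the shares were 3.3%, 2.32% and 29.5%.

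The 6 lists differed in length and in the strength of their peaks. BMAL1 replicate 2 listed 177669 peaks and replicate 1 listed 34737, so a peak of replicate 2 alone carries little weight. The windows held 11 and 50 BMAL1 peaks (15.2 and 69.2 per Mb, against 14.1 and 77.9 over all protein-coding windows), 14 and 12 REV-ERBα peaks (19.4 and 16.6 per Mb, against 12.1 and 12.8), and 36 and 57 RNAP2 peaks (49.8 and 78.9 per Mb, against 41.2 and 69.9). Of the RNAP2 peaks, 14 in replicate 1 and 10 in replicate 2 had a q-value of at most 0.05. No BMAL1 or REV-ERBα peak at these genes reached that q-value, the strongest having a −log10 p of 4.25 and 4.70. Many weak peaks shared exactly 1 value, as did 15 of the 50 BMAL1 peaks of replicate 2, at a −log10 p of 2.40. The muscle genes Acta1, Ckm, Myh4, Mylpf, Tnnt3, Tnni2, Pvalb and Atp2a1 had an RNAP2 region in 8 of 8 cases. Of 10 marker genes of other cells, Col1a1 (fibroblasts) had one at its promoter (16.05 and 5.52), Syt1 (neurons) had weak ones in introns, and Ptprc, Pecam1, Adipoq, Plin1, Pdgfra, Alb, Apoa1 and Snap25 had none.

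**Figure D1:**
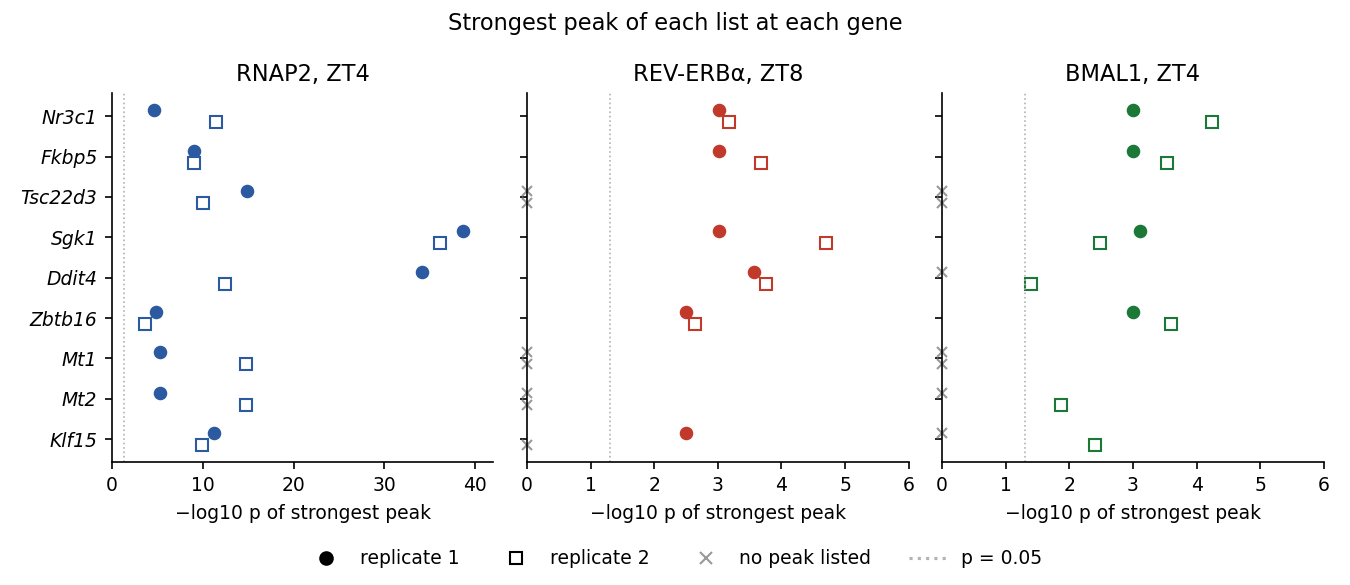
For each gene (rows), the x axis gives the −log10 p of the strongest peak in the window of that gene, in a panel per factor; filled circles are replicate 1, open squares are replicate 2, and crosses mark a list without a peak. Sgk1 stands highest in both RNAP2 replicates (38.67 and 36.14), no REV-ERBα or BMAL1 value exceeds 4.70, and the x axis of the RNAP2 panel is longer than that of the others.

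RNAP2 peaks gathered at start sites, BMAL1 peaks did not, and the REV-ERBα peaks were too few to tell. Of the RNAP2 peaks, 15 of 36 in replicate 1 (41.7%) and 15 of 57 in replicate 2 (26.3%) had their summit within 1 kb of a TSS, against 25.3% and 14% over all protein-coding windows. The REV-ERBα summits did so in 1 of 14 and 4 of 12 cases, against 10.7% and 11.2%. Those of BMAL1 did so in 0 of 11 and 2 of 50 cases, against 7.86% and 7.52%.

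**Figure D2:**
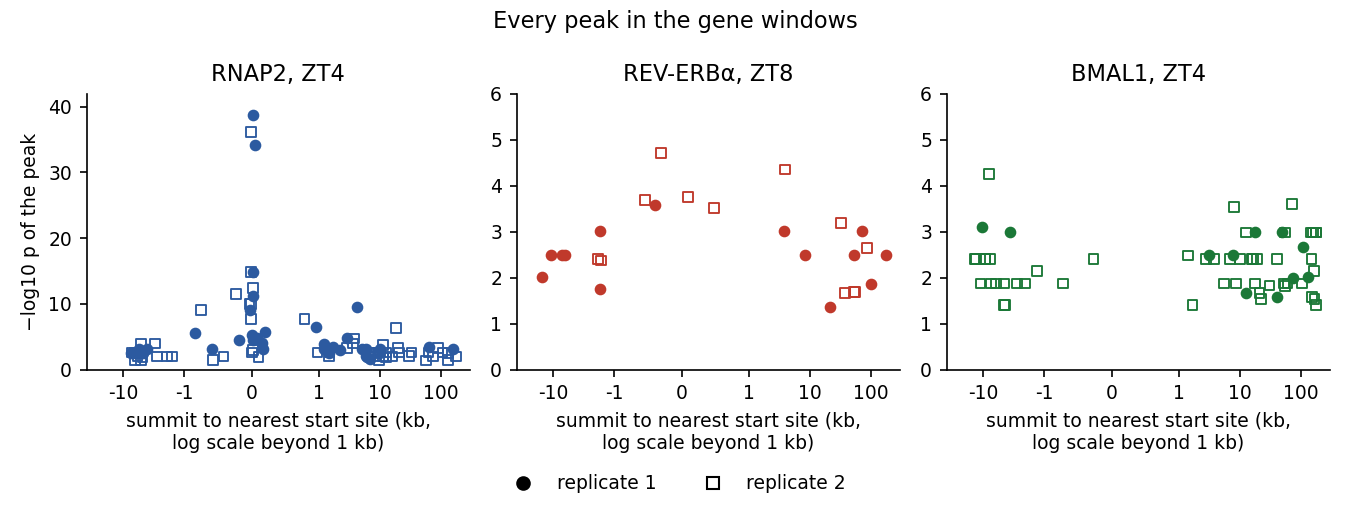
Each symbol is a peak in the window of a gene, placed by the distance of its summit from the nearest TSS of that gene (x axis, kb, linear within 1 kb and logarithmic beyond, negative upstream) and by its −log10 p (y axis); filled circles are replicate 1 and open squares replicate 2. RNAP2 peaks rise up to 38.67 at the start sites, whereas BMAL1 peaks are scattered over the windows, with 2 of replicate 2 and none of replicate 1 within 1 kb of a TSS.

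The receptor gene itself, Nr3c1 (chromosome 18, 39410545 to 39519421, minus strand), was occupied by RNAP2 at its promoters and by neither clock factor in both replicates. RNAP2 formed 2 adjoining regions in the cluster of first exons. The first, 39489248 to 39490634, reached 4.55 and 7.73 in −log10 p, replicate 1 first as in every pair of values here, with summits at +20 and −13 bp from a TSS. The second, 39491181 to 39491773, had values of 4.58 and 11.48 and summits at −192 and −232 bp. The replicates placed these peaks within 40 bp of each other but differed in their height: 39.2% of all protein-coding genes had an RNAP2 peak at least as high near a TSS in replicate 1, and 5.4% in replicate 2. REV-ERBα had 3 peaks in replicate 1 and 2 in replicate 2, all intronic, with −log10 p between 1.66 and 3.18, and none overlapped a peak of the other replicate. BMAL1 had 4 and 9 peaks, again without overlap, and the highest (4.25) was in replicate 2, at −7988 bp from the most distal TSS. The window of Nr3c1 held no GRE core.

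Fkbp5 encodes FKBP51, the immunophilin that holds the receptor in a state of low affinity for its ligand and is itself induced by the receptor. It was the gene of the group without an RNAP2 region, although each RNAP2 replicate had a clear peak at a promoter. The promoters differed. Replicate 1 peaked at the downstream of the main start sites, at 28486149 (chromosome 17, 28485791 to 28486289, −log10 p 9.04, fold enrichment 5.37, summit at −21 bp). Replicate 2 peaked at the upstream one, at 28517524 (28517416 to 28518549, also 9.04 and 5.37, summit at −753 bp), and neither replicate listed a peak within 500 bp of the start site used by the other.

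REV-ERBα had a region in an intron of Fkbp5 (28512775 to 28513408), with −log10 p of only 1.75 and 2.37 and summits 22 bp apart. Its higher Fkbp5 peaks were those of single replicates around the upstream promoter. Replicate 2 had a peak of 3.68 (28517962 to 28518668, summit at −543 bp) that overlapped the RNAP2 peak of replicate 2, and replicate 1 had a peak of 3.02 further upstream (28519117 to 28519557, summit at −1730 bp). A further replicate 2 peak of 3.52 lay in an intron (28440286 to 28440858). The Fkbp5 core printed above lies inside both replicate 2 peaks, 116 bp from the REV-ERBα summit and 94 bp from the RNAP2 summit. Fkbp5 held 11 GRE cores in its window, 0.856 per 10 kb, a number that 0.916% and a density that 2.52% of all protein-coding genes reached. BMAL1 had 2 and 8 peaks at Fkbp5, none shared by both replicates, and of the start sites of its transcripts none had a BMAL1 peak within 500 bp.

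Sgk1, a kinase that acts on ion channels and is induced by glucocorticoids, was the one gene of the group with regions of all 3 factors. RNAP2 covered its main promoter (chromosome 10, 21993792 to 21996256) at −log10 p values of 38.67 and 36.14, with fold enrichments of 12.58 and 11.67. The summits lay at +14 and −11 bp from annotated TSSs, 3 bp apart. Of all protein-coding genes, 1.01% in replicate 1 and 0.351% in replicate 2 had an RNAP2 peak as high near a TSS. Both replicates also had an RNAP2 region at the 3′ end of the gene (21999242 to 22000906, 9.46 and 4.73).

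At the 3′ end of Sgk1 the peaks of all 6 lists came together. REV-ERBα had a region there (21998978 to 22001114) at −log10 p values of 3.02 and 4.35, with fold enrichments of 2.46 and 3.01. Its summits lay 64 bp apart, at +3798 and +3862 bp from the nearest TSS (21996591). That TSS belongs to a retained-intron transcript, and the principal transcript starts further upstream, at 21994666. BMAL1 peaks of both replicates overlapped the REV-ERBα region with values of 2.48 and 2.40. However, these BMAL1 peaks overlapped each other by only 43 bp, and their summits were 543 bp apart. The GRE core of the Sgk1 3′ site begins 447 bases past the last annotated base of the gene. It lay inside the peaks of both REV-ERBα replicates, 32 and 96 bp from their summits, of both RNAP2 replicates and of BMAL1 replicate 2. The peak of BMAL1 replicate 1 ended 44 bases before it. An AGGTCA half-site follows 91 bases after the core, with its middle 69 and 5 bp from the REV-ERBα summits.

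Cores covered by so many lists were rare. Of the 21516 GRE cores in the windows of all protein-coding genes, 8.94% lay in a peak of at least 1 list, and 4 lay in peaks of at least 5 lists. Of the 30 cores near the genes studied here, 5 lay in a peak of at least 1 list, 2 in peaks of at least 2 lists, and 1, the Sgk1 3′ core, in peaks of 5 lists. Values of strongly transcribed muscle genes stand beside this site. REV-ERBα had regions at 8 of 8 muscle marker genes (4.44% of all protein-coding genes) and BMAL1 at 7 of 8 (6.81%). The REV-ERBα values were lowest at Mylpf (3.09 and 3.59). Those of Acta1 reached 19.57 and 21.16, with a summit downstream of the gene, at 3448 bp from its TSS. Over the genome, 32.9% of the 1263 REV-ERBα regions and 4.38% of the 2742 BMAL1 regions overlapped an RNAP2 region. The part of RNAP2 occupancy in the Sgk1 3′ site was not tested.

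**Figure D3:**
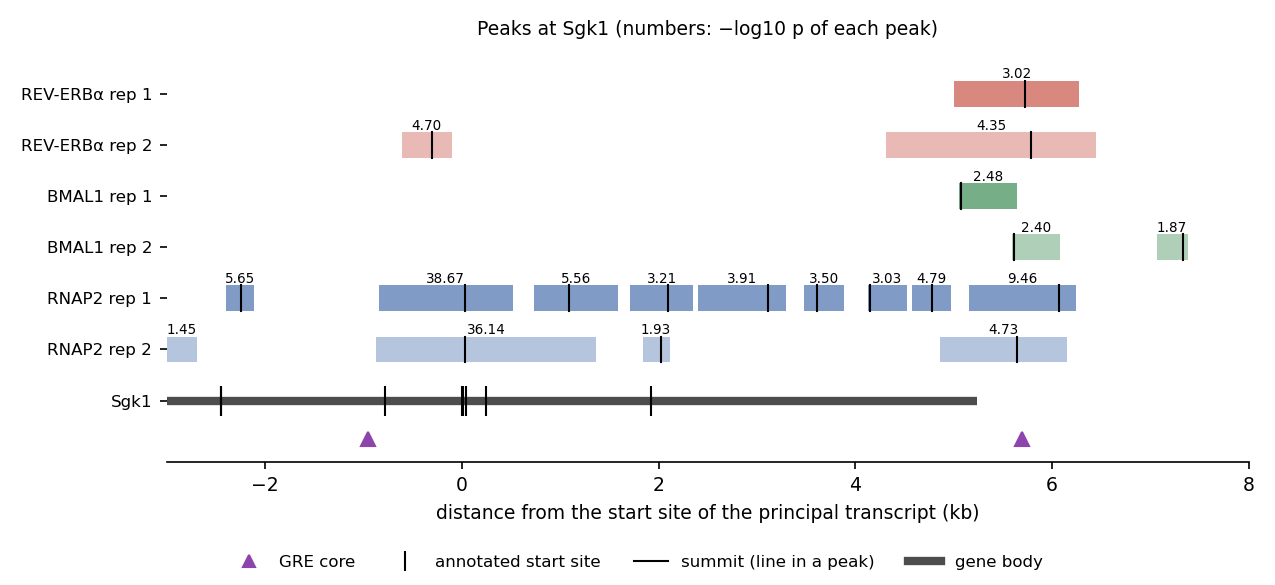
Peaks at Sgk1 by distance from the start site of its principal transcript (x axis, kb), a row per list; bars are peaks, black lines their summits, numbers their −log10 p, triangles GRE cores, and the grey bar the gene with its annotated start sites. The peaks of 5 lists cover the GRE core past the 3′ end and that of BMAL1 replicate 1 ends 44 bases before it, and the RNAP2 peaks of 38.67 and 36.14 lie on the main promoter.

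The REV-ERBα peak highest at Sgk1 was found in 1 replicate only. Replicate 2 had a −log10 p of 4.70 (21994055 to 21994562, summit at −302 bp) at the main promoter, within the RNAP2 region, and replicate 1 had no peak within 500 bp of that start site. The GRE core in the upstream promoter printed above begins at −188 bp from its start site. It was in no peak, and the nearest RNAP2 peak began 77 bases downstream of it.

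Ddit4 encodes REDD1, an inhibitor of mTORC1 that mediates part of the effect of glucocorticoids on muscle protein synthesis. Its promoter carried both RNAP2 and REV-ERBα. The RNAP2 region (chromosome 10, 59951391 to 59952164) reached 34.10 and 12.42 in −log10 p, with fold enrichments of 14.17 and 6.47 and summits at +48 and +24 bp. The REV-ERBα region (59951624 to 59952521) had values of 3.57 and 3.75, which 5.81% and 6.28% of all protein-coding genes reached near a TSS. Its peaks were the sole REV-ERBα peaks of either list at Ddit4, but they overlapped by only 66 bp. The summit of replicate 1 lay at −394 bp and that of replicate 2 at +89 bp, 483 bp apart.

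BMAL1 had no peak at Ddit4 in replicate 1 and 1 weak peak in replicate 2 (1.40, at −4393 bp). The window held no GRE core. Ddit4 and Sgk1 were among the 879 genes with an RNAP2 −log10 p of at least 12 in both replicates near a TSS, of which 21.2% had a REV-ERBα region and 13.4% a BMAL1 region.

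**Figure D4:**
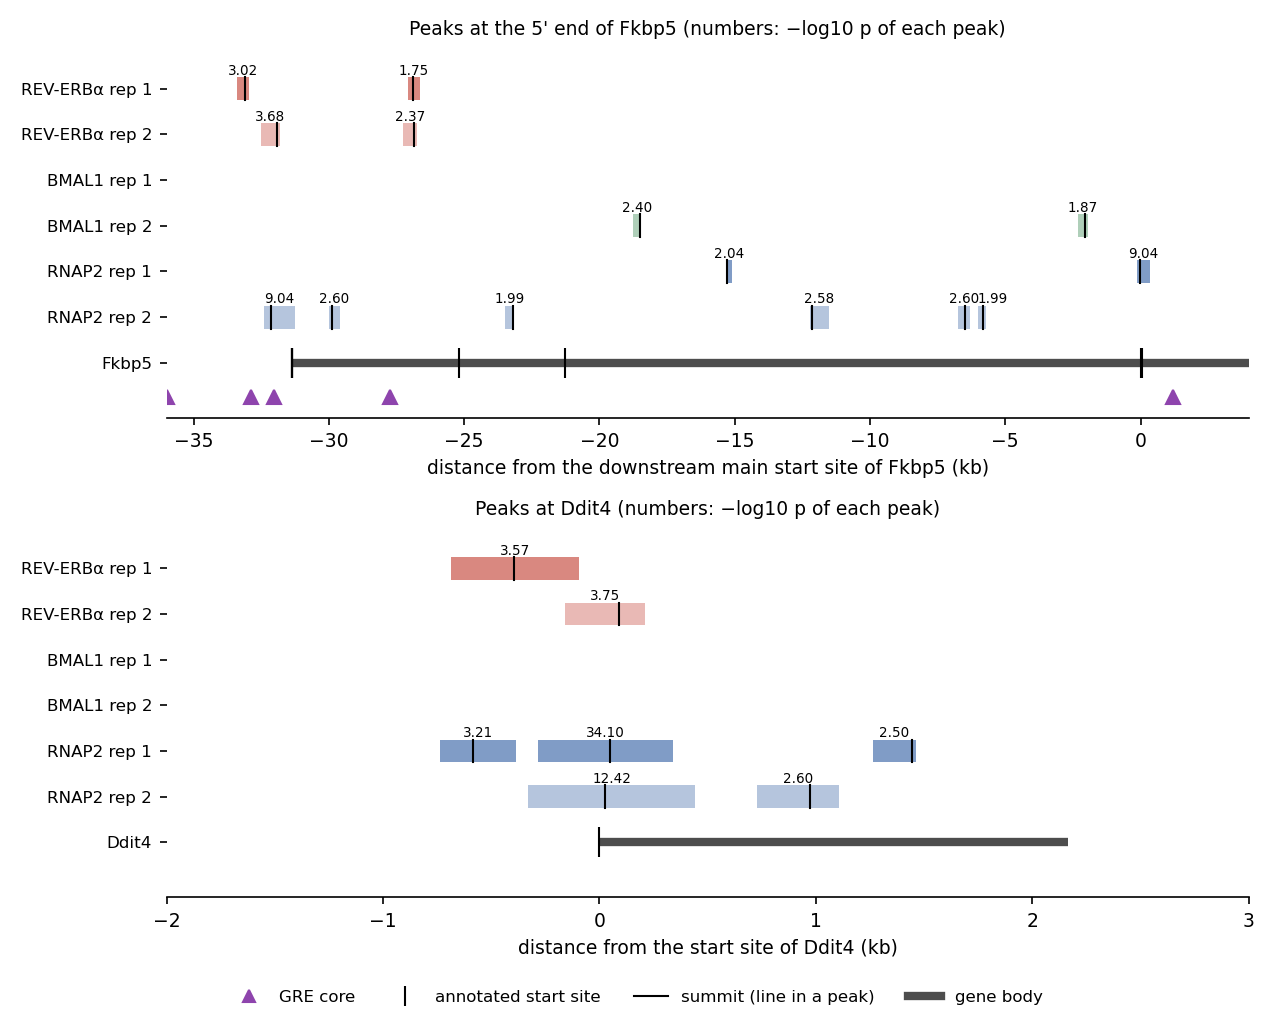
Peaks at the 5′ end of Fkbp5 (upper panel) and at Ddit4 (lower panel) by distance from a start site (x axis, kb, negative upstream), a row per list, with the same symbols as for Sgk1. At Fkbp5 the RNAP2 replicates peak at different start sites, both at 9.04, and at Ddit4 the REV-ERBα peaks of 3.57 and 3.75 meet at the RNAP2 promoter peak.

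Tsc22d3 encodes GILZ, a leucine zipper protein that carries part of the anti-inflammatory action of glucocorticoids. It was occupied by RNAP2 alone. The RNAP2 region at the start site of the short principal transcript (chromosome X, 140542548 to 140543363) stood at 14.89 and 9.996, with summits at +20 and −11 bp. The start site of the longest transcript, at 140600659, had no RNAP2 peak within 500 bp, and a weak region lay 1196 and 1432 bp inside it (3.21 and 1.99). None of the 4 BMAL1 and REV-ERBα lists had a peak in the window of Tsc22d3, which held no GRE core.

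Klf15, a Krüppel-like factor that drives amino acid catabolism in muscle, was likewise occupied by RNAP2 and by neither clock factor in both replicates. RNAP2 had a region at its first start site (chromosome 6, 90462123 to 90462919, 11.19 and 9.97, summits at +23 and −32 bp) and another just inside the gene (90463228 to 90464003, 6.41 and 7.70). The 300 bases around the RefSeq start site, from 250 before to 50 after it, held 3 E-boxes, as did 0.0883% of the 32851 RefSeq promoters, and 7.15% held at least 1. BMAL1 had no peak within 500 bp of that start site in either replicate. At Klf15 it had 0 peaks in replicate 1 and 5 in replicate 2, with −log10 p between 1.87 and 2.40. The peak of 1.87 at −719 bp from an internal start site covered the GRE core in a Klf15 exon, 79 bp from its summit. REV-ERBα had 1 peak, in replicate 1 (2.50, 8401 bp from the nearest TSS). With 4 cores in a short window, Klf15 had 1.63 GRE cores per 10 kb, a density that 0.0501% of all protein-coding genes reached, while 6.55% had as many cores.

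Zbtb16 encodes PLZF, a zinc finger repressor that responds to glucocorticoids in many cell types. RNAP2 at its promoter was low. The region (chromosome 9, 48834922 to 48836945) reached 4.88 and 3.03 in −log10 p, and 35.2% and 43.7% of all protein-coding genes had a peak as high near a TSS. The highest RNAP2 peak of replicate 2 (3.69) lay in an intron, 11143 bp from the nearest TSS, and covered the printed core, 136 bp from its summit. In its window of 191.9 kb, Zbtb16 held 7 GRE cores. It had 3 REV-ERBα peaks in each replicate and 3 and 17 BMAL1 peaks, with −log10 p between 1.36 and 3.60, and none of them was shared by both replicates of a factor.

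Mt1 and Mt2 encode metallothioneins, small proteins that bind zinc and copper and are induced by both metals and glucocorticoids. They lie beside each other on chromosome 8, share most of their windows and are close paralogs, and the authors removed reads that mapped to more than 1 place. RNAP2 had a region at Mt1 (94179007 to 94179527), with summits at 94179247 and 94179229, +6 and −12 bp from a downstream TSS (94179241). It reached 5.27 and 14.81 in −log10 p. Its place was alike in both replicates and its height was not: 33.8% of protein-coding genes in replicate 1 and 3.15% in replicate 2 had a peak as high near a TSS. Mt2 was counted through this region of Mt1. At the start site of Mt2 itself only replicate 2 had an RNAP2 peak (94172639 to 94173169, 2.60).

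REV-ERBα had no peak at Mt1 or Mt2 in either replicate, and BMAL1 had 2 weak peaks in replicate 2 (both 1.87), at −7542 and −6231 bp from the TSS of Mt2. The RefSeq start site of Mt1 lies upstream of the TSS nearest the RNAP2 summits. The GRE core of the Mt1 promoter (94178995 to 94179007) begins at −94 bp from that RefSeq start site. The RNAP2 peak of replicate 2 started on its last base, and that of replicate 1 started 40 bases after it. Metal response elements occurred 3 times in the 300 bases around the Mt1 start site and 4 times around that of Mt2, of which the printed 250 bases hold 1 and 3. At least 3 occurred in 1.97% of the RefSeq promoters, and at least 1 in 25.7%. The 300 bases centred on the highest RNAP2 summit at Mt1 held 4 metal response elements, and 32% of all RNAP2 regions held at least 1.

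Across the 9 windows, the GRE core occurred 0.415 times per 10 kb, against 0.176 over all protein-coding windows. At least 1 core was found in the windows of Fkbp5, Sgk1, Zbtb16, Mt1, Mt2 and Klf15, and in 49.9% of all protein-coding windows. A core inside a REV-ERBα peak of either replicate was found at 2 of the 9 genes, Fkbp5 and Sgk1. By peak, 1 of 14 in replicate 1 and 2 of 12 in replicate 2 held a core, against 1.06% and 1.02% of all REV-ERBα peaks. The Sgk1 core was counted in both replicates. These peaks were wider than usual, which the shares leave aside: 1277 and 2137 bp at Sgk1 and 707 bp at Fkbp5. The medians of the 2 lists were 494 and 422 bp. In the 300 bases centred on the highest summit of a region, 0.792% of REV-ERBα, 0.511% of BMAL1 and 0.465% of RNAP2 regions held a core, and the sole region of these genes that did was the REV-ERBα region at Sgk1. The same windows of all 3 REV-ERBα regions of the group (Fkbp5, Sgk1 and Ddit4) held an AGGTCA half-site. So did 19.2% of all REV-ERBα, 15.9% of all BMAL1 and 13.8% of all RNAP2 regions, and 16.3% of RefSeq promoters. The Sgk1 half-site lay in the peaks of both replicates. That of Fkbp5 lay in the peak of replicate 1 alone, and that of Ddit4 in the peak of replicate 2 alone. RefSeq promoters were found for 7 of the 9 genes, 14 in all. A core occurred in 1 promoter of Sgk1 and in that of Mt1, and in 0.475% of all RefSeq promoters. These matches describe the letters and not the binding of the receptor, which was not measured.

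Of 48 other genes of the receptor pathway, 42 had an RNAP2 region, against 41.1% of all protein-coding genes. REV-ERBα had a region at 11, against 4.44% of all genes and 8.5% of those with an RNAP2 region. BMAL1 had one at 4 (against 6.81%, a share near that of the list), and 6 genes had a shared site (against 1.62%). A shared site needs no BMAL1 region, and of these 6 genes Per1 alone had one. The shared site of Bcl6 lay apart from its REV-ERBα region. The list of 48 was drawn up with earlier results of these data known. It holds genes that the authors reported as bound by REV-ERBα in these data, so its REV-ERBα and shared counts were partly fixed beforehand. Among the 9 chaperones and cochaperones that fold the receptor, 7 had an RNAP2 region, the highest at Hspa8 (39.92 and 35.28), Hsp90ab1 (20.72 and 18.20) and Hsp90aa1 (11.98 and 13.09). Hsp90ab1, the constitutive HSP90, was the sole chaperone with a REV-ERBα region (7.49 and 8.56, summit at −584 bp), and Ptges3, the cochaperone p23, the sole one with a BMAL1 region (3.64 and 2.15). All 4 genes of ligand supply and competing receptors had an RNAP2 region, and the highest were Nr3c2, the mineralocorticoid receptor (20.36 and 15.30), H6pd, which supplies the cofactor for regeneration of active hormone (16.10 and 7.64), and Hsd11b1, the regenerating enzyme (9.46 and 6.35). The Hsd11b1 region had its summit at −8914 bp from the nearest TSS and was the sole one in the window. No RNAP2 region lay at the Hsd11b1 start site, and whether this one belongs to a neighbouring gene was not tested. REV-ERBα had a region in an intron of H6pd (4.76 and 3.68) that was part of a shared site, and BMAL1 had a weak one deep in Nr3c2 (2.01 and 1.87).

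Of 9 coregulators, 8 had an RNAP2 region (41.1% of all genes), the highest at Ncoa3 (20.10 and 13.37), Ep300 (11.22 and 9.996) and Ncor1 (12.28 and 7.67). REV-ERBα had a region at 2 of them (4.44% of all genes). At the acetyltransferase gene Ep300 it lay at the start site (3.32 and 3.47). For the deacetylase gene Hdac3 it lay downstream of the gene (5.99 and 6.59, 8459 bp from the TSS) and overlapped an RNAP2 region. Whether these regions near Hdac3 belong to a neighbouring gene was not tested. BMAL1 had a region at 1 of the 9 coregulators, Ncoa1 (2.995 and 1.87), against 6.81% of all genes. Of 26 further target genes, 23 had an RNAP2 region, 7 a REV-ERBα region, 1 a BMAL1 region and 5 a shared site, against 41.1%, 4.44%, 6.81% and 1.62% of all genes, so that the BMAL1 share lay below that of all genes. RNAP2 was highest at Dusp1 (57.34 and 37.39), a phosphatase that dampens MAP kinase signalling, Cebpb (30.29 and 25.80), a leucine zipper transcription factor, and Errfi1 (59.72 and 25.25), an inhibitor of the EGF receptor. REV-ERBα was highest at Bcl6 (30.60 and 33.88), a transcriptional repressor, Klf9 (5.45 and 6.73), a Krüppel-like factor, and the clock gene Per1 (5.41 and 7.69). Per1 also had the sole BMAL1 region (36.46 and 21.18, summit at −322 bp), so the shared sites of the other targets came without one. The other 4 targets with a REV-ERBα region were Trim63 (3.57 and 6.34), Fbxo32 (4.965 and 3.18), Dusp1 (2.64 and 3.11) and Nfkbia (1.83 and 1.69). Their values, each of the strongest region, stood beside 1.75 to 4.35 at Fkbp5, Sgk1 and Ddit4. These 4 genes were named after their values were seen. The authors had already reported REV-ERBα peaks near Per1, Klf9, Trim63 and Fbxo32 from these data, so the count of 7 was partly fixed beforehand. Fbxo32 had 3 REV-ERBα regions, and the one given lay 35974 bp from the nearest TSS.

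**Figure D5:**
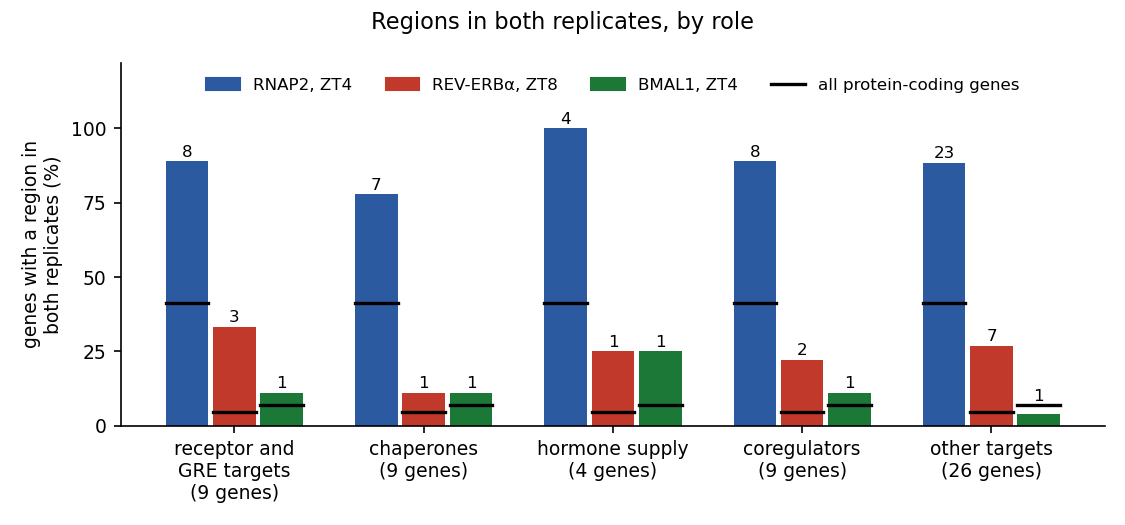
Share of genes with a region in both replicates (y axis, %) for the 9 genes studied (receptor and GRE targets) and for 4 groups of other pathway genes, by factor (colours); numbers above the bars are genes, and black lines give the share over all protein-coding genes. RNAP2 occupies 8 of 9 genes of the main group (Mt1 and Mt2 through the same region) against 41.1% of all genes. REV-ERBα occupies 3 of 9 against 4.44%. The 4 groups of other genes were listed with earlier results of these data known.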

How the data were processed

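ChIP-seq peaks were deposited for BMAL1 (ZT4), REV-ERBα (ZT8) and RNAP2 (ZT4) in gastrocnemius, 2 replicates each. The authors mapped reads to mm10 with BWA MEM, removed duplicates and reads with MAPQ under 24, down-sampled replicates to similar depth, and called peaks per sample against input with MACS2 2.1.1. The deposited fold enrichment is a ratio over local background at the summit, and the deposited −log10 p and −log10 q values belong to the same point. The deposited score column repeats the −log10 p in whole numbers and was not used. Reads behind a peak are unknown, so no counting interval is given.

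Genes came from GENCODE M21. Regions join peaks of both replicates that overlap by 1 bp or more, and a shared site needed 3 of the 4 BMAL1 and REV-ERBα lists. Motifs were exact letters on both strands of GRCm38.p6. All 9 genes of the group were named, and of the other pathway genes the 3 with the highest lower −log10 p per role and factor. Genes and lists were chosen with earlier results of these data known. Leaving out a replicate, stricter peaks and overlaps and other windows were tried. The code was tested on simulated data and run in Python 3.11.15 with numpy 2.4.6, pysam 0.24.0 and matplotlib 3.10.9.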

Additional observations from a re-analysis of the deposited data

How the results depend on the processing

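RNAP2 occupancy was the least dependent on the settings tried: 7 to 9 of the 9 genes had a region under each of them. Requiring a −log10 p of at least 3 left 0 genes with a BMAL1 region and 0 with a shared site, and REV-ERBα lost Fkbp5. Requiring a −log10 q of at least 1.3 left 0 genes with a REV-ERBα region, 0 with a BMAL1 region and 0 with a shared site. With an overlap of at least 0.5 of the shorter peak, 0 genes had a BMAL1 region, and REV-ERBα lost Ddit4. Counting peaks of 1 replicate alone gave 4 to 7 genes for BMAL1, the 4 being those of replicate 1 and the 7 those of replicate 2, and 5 to 6 for REV-ERBα, so that the requirement of both replicates decides these counts. Windows of 5 or 25 kb around TSSs, TSSs of protein-coding transcripts only, or the TSS part alone changed none of the REV-ERBα, BMAL1 and shared counts, and the 5 kb window took Mt2 from RNAP2. GRE cores inside REV-ERBα peaks were found at 1 gene, Sgk1, within 100 bp of a summit, and at 5 genes when 1 mismatch was allowed, a looser match that 19.9% and 17.9% of all REV-ERBα peaks of the 2 replicates held. Without one or the other REV-ERBα replicate, cores were found at 1 to 2 genes, since the Fkbp5 core lay in a replicate 2 peak. No paired analysis was possible because no result comes from a test between groups. The number of reads behind a peak is unknown, which limits what a missing BMAL1 or REV-ERBα peak can say.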
